A study of Mus musculus with 15 samples.

Results

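The effect of B7-H3 knockdown in sorted tumor cells was set against its effect in bulk tumors, gene by gene, in 12 of the 15 libraries of the series. The quantity is an interaction: the log2 difference between sh_B7-H3 (1) and sh NC libraries in sorted cells (the sorted effect) minus the same difference in bulk tumors (the bulk effect). A positive value means that the gene rose more, or fell less, in sorted cells than in bulk tumors. Of 24891 genes in the table, 12063 passed a filter on low values, and 56 had an interaction with a limma adjusted p below 0.05.

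The 4 groups, with 3 libraries each, are bulk sh NC, bulk sh_B7-H3 (1), sorted sh NC and sorted sh_B7-H3 (1). All came from subcutaneous tumors of 105K cells, a Tsc2-deficient line derived from a kidney tumor of a Tsc2+/- animal, grown in wild-type C57BL/6J mice, so the Tsc2 loss is shared by knockdown and control tumors. The knockdown tumors carried 1 shRNA against Cd276, the gene of B7-H3, and the controls a non-targeting shRNA. Bulk libraries hold the tumor with its host cells, while sorted libraries hold the cells left after magnetic removal of non-tumor cells. The labels do not say whether a sorted and a bulk library came from 1 tumor, or that replicates were separate animals, so p-values measure the spread between these libraries. In bulk tumors, fewer cells of a type and less RNA per cell cannot be told apart.

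B7-H3 is a membrane protein of the B7 family of immune checkpoints, found on many tumor cells and on some host cells. Class II MHC molecules present peptides to CD4+ T cells and are made all the time by dendritic cells, B cells and many macrophages, while most other cells make them only after IFN-γ induces CIITA, the master regulator of class II genes. Fibroblasts and other stromal cells supply much of the collagen and matrix of a tumor, and mast cells store proteases in granules. A bulk tumor library adds up the RNA of all these cells, and a sorted library ideally holds that of tumor cells alone.

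The promoters of class II genes share a short element, the Y box, which binds the factor NF-Y. It was searched for as TGATTGG on both strands in windows from 250 bases before to 50 bases after each RefSeq gene start (GRCm38.p6). Among the 9 tested genes of the class II list, 6 were matched by symbol, and 4 of these (H2-Aa, H2-Eb1, H2-DMb1 and H2-DMb2) held it, while H2-DMa and Ctss did not. By comparison, 11.8% of the 9384 matched tested genes held it, as did 5 of 25 matched genes with a higher and 0 of 18 with a lower interaction. A match is a description of the letters and not evidence of binding. The 3 promoters below belong to the class II list genes that both passed the interaction test and held the motif, and each is shown for the 130 bases before the gene start with the motif in capitals. H2-Aa lies at chr17:34287824-34287953 on the minus strand, with the motif starting 50 bases before the gene start. H2-Eb1 lies at chr17:34305737-34305866 on the plus strand, with the motif at 61 bases before it. H2-DMb2 lies at chr17:34145119-34145248 on the plus strand, with the motif at 92 bases before the start used. That window lies inside the full span of the gene, chr17:34143229-34151553, so the start used for H2-DMb2 is an internal one.
H2-Aa: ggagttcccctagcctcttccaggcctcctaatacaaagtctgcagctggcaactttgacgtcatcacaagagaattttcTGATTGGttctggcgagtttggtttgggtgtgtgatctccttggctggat
H2-Eb1: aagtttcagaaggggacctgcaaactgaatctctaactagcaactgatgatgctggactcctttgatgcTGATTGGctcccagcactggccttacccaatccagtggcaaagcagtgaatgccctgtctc
H2-DMb2: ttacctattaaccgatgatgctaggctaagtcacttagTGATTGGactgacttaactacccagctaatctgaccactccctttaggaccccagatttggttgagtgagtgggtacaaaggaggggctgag

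Levels are in FPKM (fragments counted per length of the gene and size of the library), adjusted here by a factor per library (scaled FPKM). All effects are differences of log2(scaled FPKM + 1), which understates the change of genes near 0. The summed FPKM of the 12 libraries ranged from 435533 to 1544002, of which 1 short RNA gene, MIR6236, took 6.01% to 79.7%. In 3 libraries, bulk sh NC 3, bulk sh_B7-H3 (1) 2 and sorted sh NC 2, this share was above 50%, and counts are also given without them, an alternative chosen after seeing the data. Read totals are not in the tables, and the spacing of the lowest values gave depths between 0.468 and 1 times that of sorted sh NC 1. Replicates of a group correlated across genes with a Pearson's r between 0.904 and 0.984. Leukocyte and endothelial markers were lower in sorted libraries than in bulk tumors, while some other host cell lists were not. The 10 pan-leukocyte markers summed to 219 to 312 scaled FPKM in bulk sh NC and 196 to 400.1 in bulk sh_B7-H3 (1) tumors, against 12.8 to 15.5 and 13.8 to 17.2 in the sorted groups. PTPRC, the common leukocyte antigen CD45, was at or below 0.158 in each of the 6 sorted libraries. The 14 endothelial markers summed to at most 2.67 in sorted libraries and to at least 49.7 in bulk tumors. The 12 skeletal muscle markers summed to 68.3 to 120.0 in sorted sh NC against 4.47 to 25.1 in bulk sh NC libraries, the 8 mast cell markers to 27.5 to 49.4 against 19.1 to 22.2, and the 8 adipocyte markers to 20.1 to 55.3 against 27.4 to 111. The mast cell sum in sorted sh NC came almost wholly from 1 gene, MS4A2, whose levels are given below. The mast cell markers TPSB2, CMA1 and CPA3 were lower there, with means of 0.0509, 0.0492 and 0.0545 against 4.09, 2.43 and 1.78 in bulk sh NC.

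CD276, the shRNA target, was compared first. In sorted cells it had 34.0, 20.004 and 17.3 scaled FPKM with sh NC and 7.29, 14.0 and 11.5 with sh_B7-H3 (1), so the groups did not overlap. In bulk tumors it had 20.8, 23.2 and 23.5 with sh NC and 22.3, 17.8 and 24.4 in the libraries labelled sh_B7-H3 (1), which overlapped. The sorted effect was -1.04 (limma adjusted p = 0.0137) and the bulk effect -0.07 (limma adjusted p = 0.863). The interaction of -0.97 (standard error 0.35, 95% interval -1.74 to -0.19, which like all intervals here is not adjusted for the number of genes) did not pass (limma adjusted p = 0.276). An exact two-sided permutation test over 400 arrangements of the knockdown labels within sorted and within bulk libraries gave p = 0.09, where the smallest possible was 0.005. Cd276 RNA thus did not separate the bulk groups. It gave no check of the bulk labels, from which the direction of every bulk effect is taken.

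Across the transcriptome, 2006 genes passed in sorted cells (16.6% of those tested, 10.5% higher and 6.16% lower with knockdown) and 2207 in bulk tumors (18.3%, 11.7% higher and 6.55% lower). Both effects were called for 1121 genes, which is 55.9% of the sorted and 50.8% of the bulk calls, and 1116 of them had the same direction, 781 higher and 335 lower. With quantile normalization the split was 1072 higher and 934 lower in sorted cells and 1230 higher and 1381 lower in bulk tumors, and on FPKM as deposited 1018 and 174 in sorted cells and 777 and 249 in bulk tumors. For the 1121 genes called in both, the 5 with opposite directions were FOSB, ADAM8, PALLD, DDAH1 and LACC1, named because they are all such genes. The median interaction of all tested genes was -0.01, and 48.8% were positive. The interaction test called 56 genes, 0.464% of those tested, with 30 higher (0.249%) and 26 lower (0.216%). On FPKM as deposited it called 86 higher and 42 lower, with the median of all genes moved to 0.12. Leaving out 1 library gave between 12 calls (without bulk sh NC 3) and 72 (without bulk sh_B7-H3 (1) 3). At an unadjusted p under 0.05 there were 1767 genes (14.6%). Of 1971 genes called in 1 effect only, 37 passed the interaction, and for the rest a difference between sorted cells and bulk tumors was not shown. The standard error of an interaction, with a median of 0.22 on the log2 scale, was larger than that of a single effect, at 0.15.

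**Figure D1:**
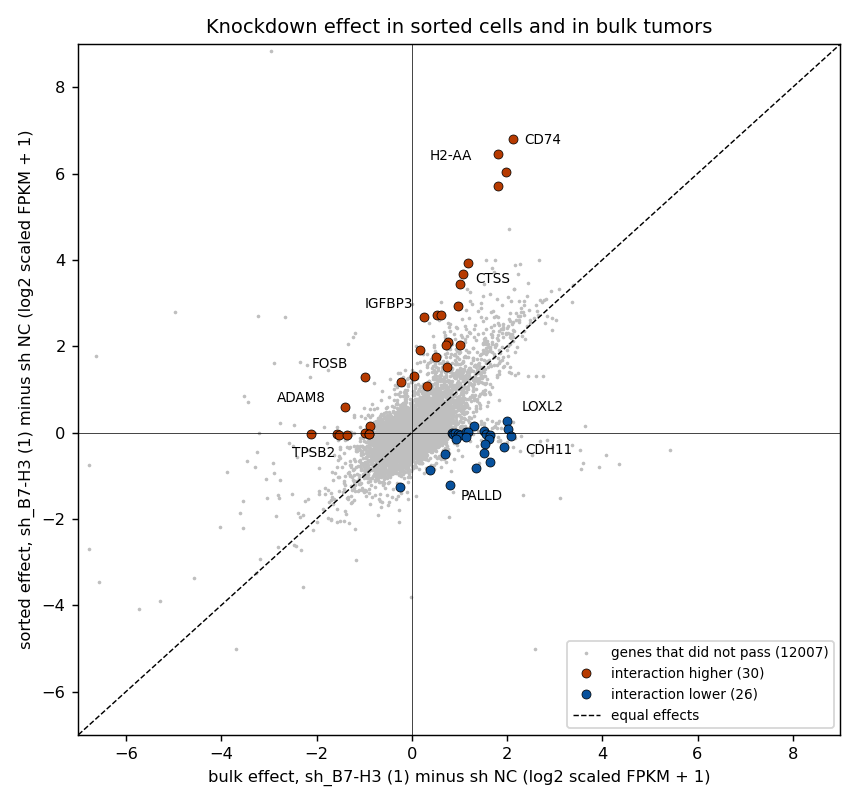
The sorted effect (vertical axis) is plotted against the bulk effect (horizontal axis) for each of 12063 tested genes, both as log2 differences between sh_B7-H3 (1) and sh NC. Genes with a higher interaction (30) lie above the line of equal effects, led by CD74 and H2-AA, and those with a lower interaction (26) lie below it, most of them with a sorted effect near 0.

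The largest interactions belonged to class II antigen presentation. CD74, the invariant chain that escorts class II molecules, H2-AA, H2-AB1 and H2-EB1, which encode their chains, H2-DMA and H2-DMB2, which load the peptide, and CTSS, the protease that trims the invariant chain, had the 7 largest interactions of the 56. All 7 rose in sorted cells and in bulk tumors, with a larger log2 change in sorted cells. Of the 9 tested list genes, 9 rose in sorted cells (median effect 3.93), 9 rose in bulk tumors (1.23), and 7 were called in the interaction (median 2.75).

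CD74 had 22.3, 8.30 and 7.96 scaled FPKM in sorted sh NC and 1988, 1114 and 1223 in sorted sh_B7-H3 (1) cells. In bulk tumors it had 152, 336 and 246 with sh NC and 1470.3, 1552 and 471 with sh_B7-H3 (1). Control libraries thus differed far more between sorted cells and bulk tumors than knockdown libraries did, whose ranges overlapped. The sorted effect was 6.80, the bulk effect 2.14 and the interaction 4.67 (standard error 0.71, limma adjusted p = 0.0192).

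H2-AA, the class II alpha chain gene at chr17:34282744-34287823 (GRCm38.p6), also had its lowest levels in sorted controls and the next in bulk controls. It had 3.91, 1.81 and 2.08 scaled FPKM in sorted sh NC and 542, 216 and 239.5 in sorted sh_B7-H3 (1) cells. Bulk tumors had 53.1, 138 and 102 with sh NC and 408, 525 and 153 with sh_B7-H3 (1). Bulk sh_B7-H3 (1) 3 was the lowest of the bulk knockdown tumors, close to the highest bulk control. The mean of bulk controls was 37.6 times that of sorted controls. The interaction was 4.64 (standard error 0.70, limma adjusted p = 0.0192), from a sorted effect of 6.45 and a bulk effect of 1.81.

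H2-AB1, the beta chain paired with H2-AA, had 5.08, 1.65 and 2.11 scaled FPKM in sorted sh NC and 388, 196 and 181 in sorted sh_B7-H3 (1) cells. Its bulk levels were 38.8, 105 and 75.9 with sh NC and 349.6, 387 and 144 with sh_B7-H3 (1), for an interaction of 4.05 (standard error 0.67, limma adjusted p = 0.0325). H2-EB1, the beta chain of the other class II isotype, had interaction 3.90 (standard error 0.73, limma adjusted p = 0.0451). Its group means were 1.13 ± 0.992 and 111 ± 52.6 scaled FPKM in sorted cells and 44.9 ± 21.4 and 167 ± 89.7 in bulk tumors (SD, n = 3, control before knockdown). Its bulk levels rose by more FPKM than its sorted levels, so the direction of the interaction holds for log2 changes and turns on the linear scale, where the difference of the differences was -11.8 FPKM. Class II genes resemble each other in sequence, so how multi-mapping reads were assigned makes the levels of single members uncertain.

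CTSS encodes cathepsin S. It had 5.10, 6.13 and 5.69 scaled FPKM in sorted sh NC and 117, 74.9 and 66.9 in sorted sh_B7-H3 (1) cells. Bulk tumors were above both sorted groups, at 126, 159.7 and 183 with sh NC and 391, 379 and 232 with sh_B7-H3 (1). The interaction was 2.61 (standard error 0.34, limma adjusted p = 0.00852) on the log2 scale, and on the linear scale bulk tumors gained more, with a difference of the differences of -97.4 FPKM. H2-DMA rose from a mean of 0.348 to 20.4 scaled FPKM in sorted cells and from 7.46 to 18.2 in bulk tumors, for an interaction of 2.75 (standard error 0.47, limma adjusted p = 0.0344). H2-DMB2 had 1.02, 0.972 and 1.11 scaled FPKM in sorted sh NC and 37.6, 15.1 and 16.5 in sorted sh_B7-H3 (1) cells, where every knockdown library was above every bulk tumor, and its interaction was 2.44 (standard error 0.44, limma adjusted p = 0.0423).

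The other tested members, H2-DMB1 and CIITA, did not pass. H2-DMB1 had an interaction of 1.82 (limma adjusted p = 0.139). CIITA had 0.127, 0.0672 and 0.0221 scaled FPKM in sorted sh NC and 6.88, 3.38 and 3.47 in sorted sh_B7-H3 (1) cells, and 0.387, 0.727 and 0.450 and 3.37, 3.61 and 1.10 in the bulk groups. Its sorted effect of 2.32 and bulk effect of 1.2 both passed, and the interaction of 1.12 (95% interval 0.22 to 2.02) did not (limma adjusted p = 0.276). The list summed to 25.7 to 44.1 scaled FPKM in sorted sh NC, 1749.7 to 3358 in sorted sh_B7-H3 (1), 409.7 to 835 in bulk sh NC and 1107 to 3173 in bulk sh_B7-H3 (1) libraries. The 14 macrophage markers summed to 64.9 to 71.0 and 148 to 169 in the sorted groups and to 948 to 1612 and 1006 to 1692 in the bulk groups, with 3 of 13 tested genes higher in knockdown sorted cells, and their part in the class II levels was not tested. B cell markers summed to at most 1.84 in all 12 libraries. All 7 class II interactions stayed positive in every alternative fit on the log2 scale in which they were tested. The number past the threshold was 7 without bulk sh_B7-H3 (1) 2, 5 without bulk sh NC 1, bulk sh_B7-H3 (1) 1 or bulk sh_B7-H3 (1) 3, 4 without sorted sh NC 1, 3 without bulk sh NC 2 or sorted sh_B7-H3 (1) 1, 2 without sorted sh_B7-H3 (1) 2, 1 without bulk sh NC 3, sorted sh NC 2, sorted sh NC 3 or sorted sh_B7-H3 (1) 3, and 0 without the 3 libraries rich in MIR6236.

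**Figure D2:**
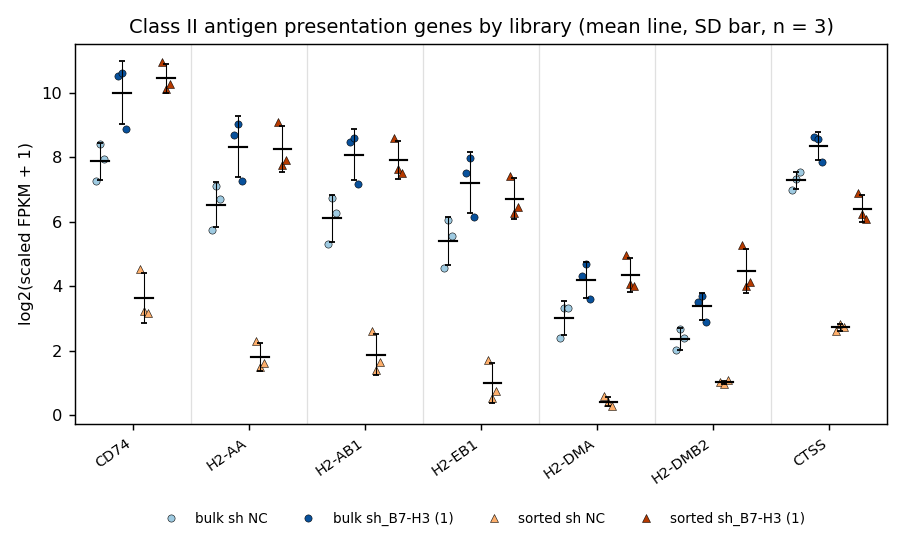
Levels of the 7 called class II genes are plotted as log2(scaled FPKM + 1) for each of the 12 libraries, with a line at the mean and bars of 1 SD (n = 3). Sorted sh NC cells sit lowest for every gene, bulk sh NC tumors sit higher, and the sh_B7-H3 (1) libraries of both kinds lie above their own controls.

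No gene of the interferon and class I lists passed the interaction, so a difference between the effects was not shown for any of them, and their counts are given for each effect. Over all tested genes, 10.5% rose and 6.16% fell in sorted cells, and 11.7% rose and 6.55% fell in bulk tumors. The IFN-γ-induced GTPases, which attack the vacuoles of intracellular microbes, rose in sorted cells for 18 of 18 tested genes (median 2.64) and in bulk tumors for 11 of 18 (1.13), with a median interaction of 1.56 and 0 calls. IIGP1 had 40.2, 30.6 and 30.9 scaled FPKM in sorted sh NC, 505, 235 and 269 in sorted sh_B7-H3 (1), 34.0, 23.6 and 19.9 in bulk sh NC and 111, 118 and 40.1 in bulk sh_B7-H3 (1) libraries. Its controls overlapped between sorted cells and bulk tumors, while those of the 7 called class II genes did not. The interaction was 1.55 (limma adjusted p = 0.268), and those of IRGM1 and GBP2 were 1.53 (limma adjusted p = 0.16) and 1.67 (limma adjusted p = 0.253).

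Of 9 tested IFN-γ-induced chemokines and ligands, 8 rose in sorted cells (median 2.52) and 3 in bulk tumors (0.92), with a median interaction of 1.43 and 0 calls. IDO1, which breaks down tryptophan, had 0.194, 0.128 and 0.190 scaled FPKM in sorted sh NC and 18.4, 7.06 and 4.64 in sorted sh_B7-H3 (1) cells. In bulk tumors it had 0, 0.0624 and 0.0718 with sh NC and 0.871, 0.821 and 0.214 with sh_B7-H3 (1). Every bulk tumor was below 1 scaled FPKM, and among the sorted knockdown libraries replicate 1 was the highest. The interaction was 2.41 (standard error 0.49, limma adjusted p = 0.0636). It passed in 5 of the 23 planned fits. These were on deposited FPKM, with quantile normalization, with all 15 libraries, with array weights and with a leukocyte covariate. IDO1 was not tested with at least 1 scaled FPKM in every library, or without 1 of the sorted sh_B7-H3 (1) libraries. Of the 12 libraries, it reached 1 scaled FPKM in the sorted sh_B7-H3 (1) ones alone, so a difference was built into the filter on low values.

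CD274, which encodes PD-L1, had 4.39, 4.02 and 4.51 scaled FPKM in sorted sh NC and 25.0, 12.3 and 12.4 in sorted sh_B7-H3 (1) cells, and 4.95, 4.63 and 4.87 and 7.52, 9.79 and 2.68 in the bulk groups. The bulk groups overlapped, since bulk sh_B7-H3 (1) 3 was below every bulk control. The interaction was 1.39 (95% interval 0.32 to 2.46, limma adjusted p = 0.264). For IFNGR1, a chain of the IFN-γ receptor, it was -0.00 (95% interval -0.38 to 0.38, limma adjusted p = 0.994), with effects of 0.27 in sorted cells and 0.28 in bulk tumors. IFNG itself was below the filter, listed at 0 in all 6 sorted libraries and at most at 0.174 scaled FPKM in bulk tumors. Of 14 genes of IFN-γ signaling, 7 rose and 1 fell in sorted cells and 4 rose in bulk tumors, with a median interaction of 0.04 that turned negative under quantile normalization.

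Among 15 tested class I heavy chain and β2-microglobulin genes, 11 rose in sorted cells (median 0.99) and 1 in bulk tumors (0.21), with 0 interaction calls at a median of 1.00. Levels were high throughout, as for H2-K1, with 849 ± 92.8 and 1683 ± 90.2 scaled FPKM in sorted and 1160.1 ± 64.0 and 1508 ± 323 in bulk libraries (SD, n = 3, control before knockdown). Of 13 peptide loading genes, 11 rose in sorted cells (1.30) and 3 in bulk tumors (0.46), with 0 interaction calls and a median of 0.76. PSMB9, an immunoproteasome subunit, had an interaction of 1.87 (limma adjusted p = 0.0869).

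The type I interferon-stimulated genes, which answer IFN-α and IFN-β and many of which also respond to IFN-γ, included no gene that passed the interaction. Of 22 tested genes, 15 rose in sorted cells (median 1.07) and 2 rose in bulk tumors (median -0.02). All 22 interactions were positive, at a median of 0.94, against 48.8% positive among all tested genes, and 0 were called. BST2, the tether that holds budding viruses, had 97.0, 136 and 177 scaled FPKM in sorted sh NC and 383, 178 and 258 in sorted sh_B7-H3 (1) cells. In bulk tumors it had 255, 266 and 225 with sh NC and 162, 250.2 and 103 with sh_B7-H3 (1), where knockdown tumors 1 and 3 were below every control. For BST2 the sorted effect was 0.97 (limma adjusted p = 0.0743), the bulk effect -0.62 (limma adjusted p = 0.21) and the interaction 1.58 (limma adjusted p = 0.201). ZBP1, a sensor of nucleic acids, and IFIT3, an antiviral effector, had interactions of 1.57 (limma adjusted p = 0.0979) and 1.04 (limma adjusted p = 0.281). DHX58, which encodes the RNA sensor LGP2 and is in none of the lists, was called with 1.26 (standard error 0.24, limma adjusted p = 0.0466).

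**Figure D3:**
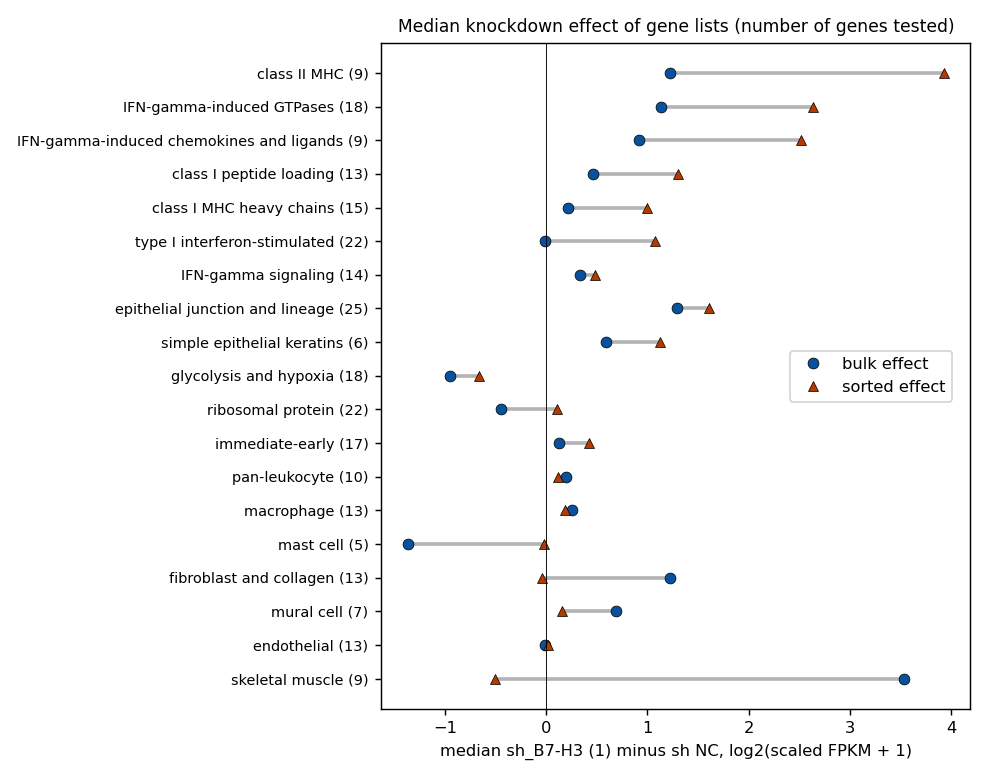
Median bulk effects (circles) and sorted effects (triangles) are plotted for 19 gene lists, as log2 differences between sh_B7-H3 (1) and sh NC over the tested members, whose number stands in parentheses. The antigen presentation and interferon lists other than IFN-γ signaling have median sorted effects from 0.99 to 3.93, while the fibroblast and skeletal muscle lists have median bulk effects of 1.22 and 3.53.

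Of the 30 genes with a higher interaction, 15 rose in both effects, the 7 class II genes among them, and 5 rose in sorted cells without passing in bulk tumors. AP1M2, an adaptor subunit of epithelial vesicle sorting, had 0.231, 0.219 and 0.772 scaled FPKM in sorted sh NC and 9.74, 6.66 and 7.37 in sorted sh_B7-H3 (1) cells. Every bulk tumor was below 1, at 0.209, 0.133 and 0.183 with sh NC and 0.856, 0.436 and 0.0364 with sh_B7-H3 (1). Its interaction was 2.42 (standard error 0.30, limma adjusted p = 0.00852). AP1M2 and CD300E reached 1 scaled FPKM in sorted sh_B7-H3 (1) libraries alone, so for them a difference was built into the filter on low values.

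IGFBP3, which binds insulin-like growth factors, had 9.17, 12.9 and 8.39 scaled FPKM in sorted sh NC and 84.8, 67.2 and 64.5 in sorted sh_B7-H3 (1) cells. In bulk tumors, controls were already high, at 86.7, 96.3 and 123, and knockdown tumors had 155, 154 and 132. The sorted effect was 2.73, the bulk effect of 0.53 did not pass (limma adjusted p = 0.0565), and the interaction was 2.19 (standard error 0.25, limma adjusted p = 0.00852). IL1RN, the antagonist of the interleukin 1 receptor, rose in both, from 2.04, 2.07 and 1.32 to 20.6, 20.8 and 19.3 in sorted cells and from 9.65, 7.81 and 9.58 to 18.3, 14.1 and 24.2 in bulk tumors, with an interaction of 1.97 (standard error 0.25, limma adjusted p = 0.00852). IGFBP3 and IL1RN, with LOX and LOXL2 below, were the 4 genes called in all 23 planned fits, and 11 of the 56 were called in at least 20. The fit with at least 1 scaled FPKM in every library tested only 11 of the 30 higher and 9 of the 26 lower genes. Genes at low levels thus could not be called in all 23.

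KLK8, a secreted serine protease, had 0, 0.0586 and 0.115 scaled FPKM in sorted sh NC, 1.52, 1.23 and 1.46 in sorted sh_B7-H3 (1), 2.04, 1.77 and 2.69 in bulk sh NC and 1.83, 1.48 and 1.80 in bulk sh_B7-H3 (1) libraries. Only the sorted control was near 0, and the interaction was 1.40 (standard error 0.17, limma adjusted p = 0.00852). CTSC, the protease that activates granule enzymes, rose from 8.41 ± 0.703 to 39.5 ± 8.62 in sorted cells and from 26.8 ± 5.91 to 45.3 ± 2.13 in bulk tumors (SD, n = 3), with an interaction of 1.33 (standard error 0.24, limma adjusted p = 0.0423). GPA33, PRSS22, KHDC1B, GM3336, CD300E, NECTIN2 and PMM1 were also called, with interactions between 0.75 for PMM1 and 2.11 for GPA33. With DHX58 above, they complete the genes of these kinds. NECTIN2 encodes an adhesion protein of epithelial junctions, and GPA33 a surface antigen of intestinal epithelium.

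The epithelial junction and lineage list, in which 20 of 25 tested genes rose in sorted cells (median 1.61) and 18 in bulk tumors (1.29), had 0 interaction calls and a median interaction of 0.27. EPCAM, an adhesion molecule of epithelia, had 20.3, 27.4 and 17.2 and 168, 150.4 and 126 scaled FPKM in the sorted control and knockdown groups and 25.8, 25.0 and 12.8 and 141, 90.0 and 182 in the bulk ones. The interaction of EPCAM was 0.09 (95% interval -0.83 to 1.00), while that of the tight junction gene CLDN4 was 1.44 (limma adjusted p = 0.0855). In the glycolysis and hypoxia list, 8 of 18 tested genes fell in sorted cells (median -0.66) and 14 in bulk tumors (-0.95), with 0 interaction calls. The 22 ribosomal protein genes did not pass in either effect, with medians of 0.11 in sorted cells and -0.45 in bulk tumors and 20 of 22 positive interactions (median 0.57).

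FOSB and ADAM8 rose in sorted cells and fell in bulk tumors. FOSB, an immediate-early gene of the AP-1 family, had 44.0, 34.7 and 24.1 scaled FPKM in sorted sh NC and 74.9, 69.3 and 107 in sorted sh_B7-H3 (1) cells. In bulk tumors it had 1.34, 1.80 and 2.23 with sh NC and 0.318, 0.411 and 0.503 with sh_B7-H3 (1). Sorted libraries were thus far above bulk tumors whatever the shRNA, and within each kind the groups did not overlap. The sorted effect was 1.28, the bulk effect -0.97 and the interaction 2.25 (standard error 0.31, limma adjusted p = 0.0102).

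The 17 immediate-early genes, which answer stimuli within minutes and are also known to be switched on by tissue dissociation, summed to 1196 to 1458 and 1558 to 2076 scaled FPKM in the sorted groups and 341 to 459.9 and 349 to 379.5 in the bulk groups. Of these, 6 rose in sorted cells, and 1 rose and 3 fell in bulk tumors, and FOSB alone was called in the interaction (median 0.28, 16 of 17 positive). Among all tested genes, 10.5% rose in sorted cells, and 11.7% rose and 6.55% fell in bulk tumors. FOS had 266, 245 and 188 scaled FPKM in sorted sh NC, 322, 309 and 417 in sorted sh_B7-H3 (1), 7.23, 4.37 and 12.9 in bulk sh NC and 6.13, 5.10 and 5.56 in bulk sh_B7-H3 (1) libraries, with an interaction of 0.95 (limma adjusted p = 0.319). The part of the dissociation step in the FOSB difference was not tested.

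ADAM8, a membrane protease of myeloid and some tumor cells, had 0.407, 0.401 and 0.235 scaled FPKM in sorted sh NC and 1.04, 1.07 and 0.961 in sorted sh_B7-H3 (1) cells. In bulk tumors it had 9.07, 6.06 and 10.6 with sh NC and 2.08, 3.42 and 2.34 with sh_B7-H3 (1). It was the higher in bulk tumors, the reverse of FOSB, and its interaction was 1.98 (standard error 0.26, limma adjusted p = 0.00852).

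A further 8 genes fell in bulk tumors and were at or below 0.226 scaled FPKM in all 6 sorted libraries. At such levels log2(scaled FPKM + 1) leaves almost no room for a fall in sorted cells, so their interactions largely repeat the bulk effects. Among the 8 were 3 mast cell proteases. TPSB2, a tryptase, had 2.97, 3.54 and 5.77 scaled FPKM in bulk sh NC and 0.0494, 0.4 and 0 in bulk sh_B7-H3 (1) tumors. Its bulk effect was -2.13, its sorted effect -0.03 and its interaction 2.10 (standard error 0.27, limma adjusted p = 0.00852). The chymase CMA1 had 1.72, 2.25 and 3.33 in bulk controls and 0.0493, 0.310 and 0.0631 in bulk knockdown tumors, with an interaction of 1.55 (standard error 0.22, limma adjusted p = 0.0166). Carboxypeptidase CPA3 had 1.5, 1.63 and 2.21 and 0.0349, 0.188 and 0, with an interaction of 1.30 (standard error 0.17, limma adjusted p = 0.00852). All bulk control tumors were above all bulk knockdown tumors for these 3 genes, at low levels. Of the 12 libraries, the 3 genes reached 1 scaled FPKM in the bulk sh NC ones alone. A fall in bulk tumors was thus built into the filter on low values for them. Of 5 tested genes in the mast cell list, 4 fell in bulk tumors, these 3 among them, and 0 changed in sorted cells. The fifth was MS4A2, a chain of the IgE receptor, at 35.9, 49.2 and 26.8 scaled FPKM in sorted sh NC and 10.1, 12.3 and 5.16 in bulk sh NC libraries, and at 12.3, 22.4 and 8.07 and 13.2, 12.5 and 51.1 in the sorted and bulk knockdown groups, with an interaction of -2.55 (limma adjusted p = 0.18), so it was abundant in sorted cells where the proteases were near 0.

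The other 5 were CHIL3, CLEC4D, CLEC4E, TREM1 and NMB. CLEC4D and CLEC4E are receptors of myeloid cells for microbial and damage products, TREM1 amplifies the response of neutrophils and monocytes, and CHIL3 is a chitinase-like protein of activated macrophages. CLEC4D had 2.51, 2.76 and 3.51 scaled FPKM in bulk sh NC and 1.04, 0.886 and 1.04 in bulk sh_B7-H3 (1) tumors, with an interaction of 0.96 (standard error 0.15, limma adjusted p = 0.0292). CLEC4E, TREM1, CHIL3 and NMB had interactions of 0.87, 0.88, 1.47 and 1.03. The 9 neutrophil markers summed to 5.79 to 11.99 scaled FPKM in bulk sh NC and 2.20 to 3.66 in bulk sh_B7-H3 (1) tumors, and 2 of 2 tested fell. Of 13 tested macrophage genes, 1 rose and 0 fell in bulk tumors, near the 11.7% and 6.55% of all tested genes. Of these 8 genes, 7 passed the filter on low values through the 3 bulk sh NC libraries alone, so a difference for them was built into the filter.

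**Figure D4:**
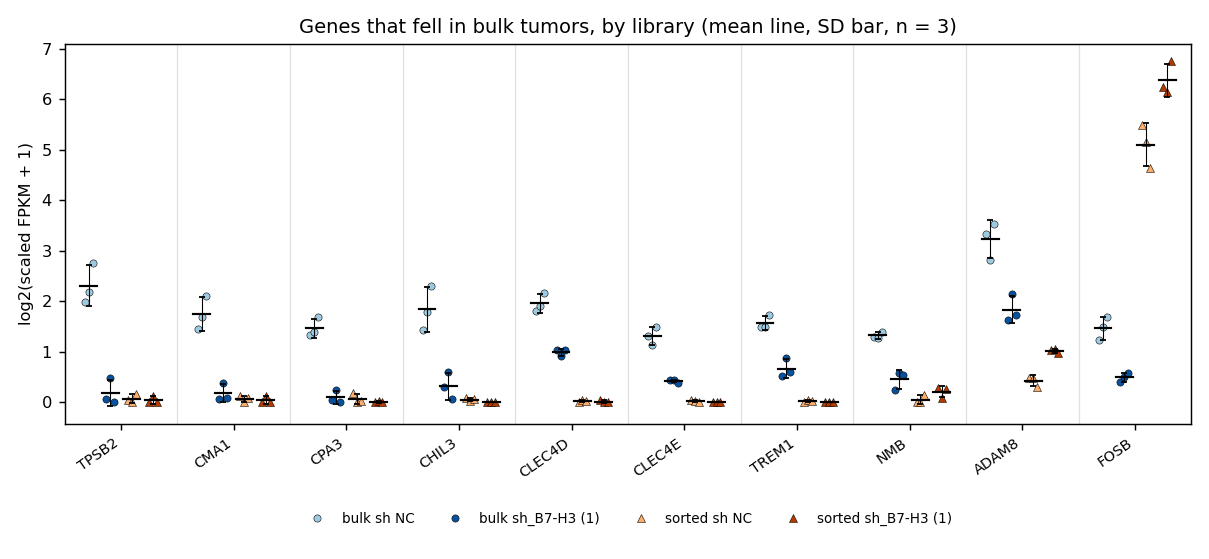
Levels are plotted as log2(scaled FPKM + 1) in each of the 12 libraries for the 8 genes that fell in bulk tumors and were near 0 in sorted cells, and for ADAM8 and FOSB, with a line at the mean and bars of 1 SD (n = 3). Bulk sh NC tumors (light circles) are above bulk sh_B7-H3 (1) tumors (dark circles) for all 10 genes, and only FOSB is high in sorted cells (triangles).

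Of the 26 genes with a lower interaction, 1 (POSTN) is in the fibroblast and collagen list. In bulk tumors 24 of the 26 rose, and 22 of the 24 did not pass in sorted cells. Of these 22, 11 were below 1 scaled FPKM in every sorted sh NC and sorted sh_B7-H3 (1) library. At such levels log2(scaled FPKM + 1) keeps a sorted effect near 0. Choosing genes by a lower interaction itself favors those that rise in bulk tumors. LOX, which crosslinks collagen and elastin, had 2.15, 1.90 and 2.37 scaled FPKM in bulk sh NC and 7.26, 9.89 and 7.22 in bulk sh_B7-H3 (1) tumors. In sorted cells it had 2.42, 1.68 and 2.70 with sh NC and 1.54, 1.5 and 2.13 with sh_B7-H3 (1). The sorted control libraries were at the level of the bulk controls, so LOX RNA was present in sorted cells, where its effect did not pass. The bulk effect was 1.53, the sorted effect -0.26 and the interaction -1.79 (standard error 0.22, limma adjusted p = 0.00852).

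LOXL2, a related crosslinking enzyme, had 4.10, 4.17 and 3.16 scaled FPKM in bulk sh NC and 18.6, 16.6 and 19.7 in bulk sh_B7-H3 (1) tumors, against 2.32, 2.12 and 1.73 and 2.11, 3.43 and 2.50 in sorted cells. Its interaction was -1.75 (standard error 0.21, limma adjusted p = 0.00852). POSTN, the matrix protein periostin, was the most abundant of the 26. It had 40.1, 71.6 and 45.9 in bulk sh NC and 171, 143 and 129 in bulk sh_B7-H3 (1) tumors. In sorted cells it had 14.3, 17.2 and 15.2 with sh NC and 8.65, 11.6 and 12.9 with sh_B7-H3 (1), with all knockdown libraries below all controls though the effect of -0.47 did not pass (limma adjusted p = 0.159). The interaction of POSTN was -1.98 (standard error 0.29, limma adjusted p = 0.0181).

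CDH11, a cadherin of fibroblasts and bone-forming cells, had 0.825, 1.80 and 1.19 scaled FPKM in bulk sh NC and 12.5, 7.49 and 6.42 in bulk sh_B7-H3 (1) tumors, while sorted libraries reached at most 0.417. Its interaction was -2.16 (standard error 0.29, limma adjusted p = 0.0102). THBS2, a matricellular thrombospondin, had 5.54, 9.66 and 4.81 in bulk controls and 37.5, 29.2 and 18.3 in bulk knockdown tumors, with an interaction of -2.27 (standard error 0.41, limma adjusted p = 0.044). C1QTNF3, a secreted protein of the C1q and TNF family, had the most negative interaction of all called genes, -2.31 (standard error 0.38, limma adjusted p = 0.0325), with 1.28, 2.22 and 1.57 and 5.86, 8.24 and 7.90 in bulk and 1.41, 1.96 and 3.72 and 0.691, 0.685 and 1.91 in sorted libraries, control before knockdown. CTHRC1, a secreted collagen-associated protein, and ASPN, a small leucine-rich proteoglycan, had interactions of -2.17 (standard error 0.40, limma adjusted p = 0.0451) and -1.95 (standard error 0.32, limma adjusted p = 0.0325). FHL1, a LIM-domain protein of muscle and fibroblasts, had -1.78 (standard error 0.34, limma adjusted p = 0.0498). COL5A2, SPON1, ADAMTS12, P4HA3, PAMR1 and SRPX2, most of them secreted or collagen-modifying proteins, had interactions between -1.69 and -0.85, and GZME, GPR153, PENK, CDKN2B, MALL, NKD2 and PDZRN3 between -1.48 and -0.92. Of these, 7 (GPR153, PENK, CDKN2B, NKD2, PDZRN3, P4HA3 and SRPX2) reached 1 scaled FPKM in bulk sh_B7-H3 (1) libraries alone, so for them too a difference was built into the filter.

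PALLD and DDAH1 rose in bulk tumors and fell in sorted cells. PALLD, an actin-bundling protein, had 10.6, 8.69 and 7.56 scaled FPKM in bulk sh NC and 15.7, 16.1 and 16.7 in bulk sh_B7-H3 (1) tumors. In sorted cells it had 10.3, 8.87 and 5.31 with sh NC and 2.15, 3.50 and 2.89 with sh_B7-H3 (1). Neither pair overlapped, and the interaction was -2.02 (standard error 0.29, limma adjusted p = 0.0162). MSRB3 and APBB1IP fell in sorted cells without passing in bulk tumors, with interactions of -1.01 and -1.24. All 26 lower interactions stayed negative in every alternative fit in which they were tested. Leaving out 1 library, between 4 of them (without bulk sh NC 3, sorted sh NC 2 or sorted sh_B7-H3 (1) 2) and 16 (without bulk sh NC 2) passed, and 1 passed without the libraries rich in MIR6236. LACC1, the remaining gene with opposite effects, did not pass the interaction.

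**Figure D5:**
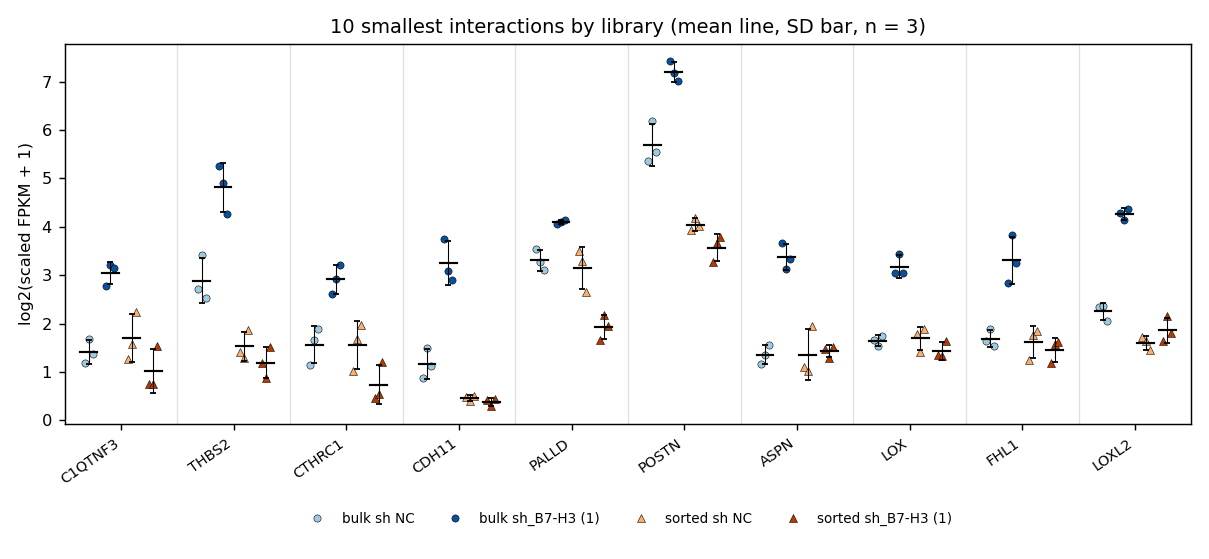
Levels of the 10 called genes with the most negative interactions are plotted as log2(scaled FPKM + 1) for the 12 libraries, with a line at the mean and bars of 1 SD (n = 3). Bulk sh_B7-H3 (1) tumors (dark circles) are above all other groups for every gene shown, and the sorted groups (triangles) overlap or, for PALLD and POSTN, lie lower with knockdown.

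The marker list of fibroblasts and collagen moved with these genes in bulk tumors. It summed to 192 to 318 scaled FPKM in bulk sh NC and 504 to 999 in bulk sh_B7-H3 (1) tumors, and to 105 to 169.8 and 95.8 to 139 in the sorted groups. Of 13 tested members, 8 rose and 1 fell in bulk tumors (median 1.22), while 0 rose and 1 fell in sorted cells (median -0.04). POSTN was the 1 member called in the interaction, and all 13 interactions were negative (median -1.26). COL1A1, a chain of type I collagen, had 32.0, 64.2 and 31.0 scaled FPKM in bulk sh NC and 271, 198 and 113 in bulk sh_B7-H3 (1) tumors, with an interaction of -2.28 (standard error 0.54, limma adjusted p = 0.106). The part of fibroblast content in the lower interactions was not tested.

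No gene of the skeletal muscle, T cell, pan-leukocyte and endothelial lists passed the interaction. The 9 tested skeletal muscle genes all rose in bulk tumors (median 3.53) and did not pass in sorted cells (-0.51), with a median interaction of -3.93 and 0 calls. ACTA1, the actin of skeletal muscle, had 10.1, 221 and 60.0 scaled FPKM in bulk sh_B7-H3 (1) against 1.48, 8.19 and 3.26 in bulk sh NC tumors, with bulk sh_B7-H3 (1) 2 far above the rest, and an interaction of -3.93 (limma adjusted p = 0.224). Of 3 tested T cell genes, 2 rose in bulk tumors and 0 in sorted cells, with 0 interaction calls. Of the 13 genes in that list, 12 were below 1 scaled FPKM in every sorted sh NC and sorted sh_B7-H3 (1) library. The list summed to at most 3.66 in bulk sh NC tumors and to more in each bulk sh_B7-H3 (1) tumor. The filter on low values thus favored T cell genes that rise in bulk tumors, and their counts cannot compare the sorted and bulk effects. Of 10 pan-leukocyte genes 0 changed in either, and of 13 endothelial genes 1 rose and 1 fell in bulk tumors, with median interactions of -0.03 and 0.06. For comparison, 11.7% of all tested genes rose and 6.55% fell in bulk tumors. In all, 38 of 39 lists had a tested gene, 4 had a gene called in the interaction (class II MHC, mast cell, fibroblast and collagen, and immediate-early), and 44 of the 56 called genes were in no list.

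The filter on low values bore on the calls, since 16 of the 56 genes (28.6%) reached 1 scaled FPKM only in the 3 libraries of a single group, against 93 of all 12063 tested genes (0.771%). Without the 3 libraries rich in MIR6236, the interaction called 8 genes, of which ADAM8, GPA33, IGFBP3 and LOX were among the 56.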

How the data were processed

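RNA was sequenced from 15 libraries, 12 of which enter the comparison. The authors deposited 1 table of FPKM values per gene, with mm10 named in the submitters' processing notes; the aligner is not given in the sources used here. From 24917 rows, 26 with date-like names were dropped. FPKM were divided by a median-ratio factor per library, from 0.650 to 1.16, over 9872 genes of at least 1 FPKM in all 15 libraries. Genes with at least 1 scaled FPKM in 3 of the 12 libraries were kept. Values of log2(scaled FPKM + 1) were fitted with limma 3.58.1 (R 4.3.3, trend) over 4 groups, with Benjamini-Hochberg adjustment over 12063 genes and a threshold of 0.05. The script was tested on simulated data. The genes named by rule were the study's genes, the 10 largest interactions at each end, extremes within patterns of the 2 effects and called list members; other called genes were named after their values were seen. The result of 1 gene named by rule is not reported here. Members, lists and tests were chosen with earlier results of these data known. Fragment totals were not used, so the precision rests on the spread between replicates.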

Additional observations from a re-analysis of the deposited data

Results flagged for a closer look

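The difference between the sorted and the bulk effect passed its own test for 56 genes, by limma with an adjusted p below 0.05 over all 12063 tested genes. Those named by rule are given here with their log2 interactions. In the class II group they were CD74 at 4.67, H2-AA at 4.64, H2-AB1 at 4.05, H2-EB1 at 3.90, H2-DMA at 2.75, CTSS at 2.61 and H2-DMB2 at 2.44. Other genes with a larger effect in sorted cells had 2.42 for AP1M2, 2.25 for FOSB, 2.19 for IGFBP3 and 1.40 for KLK8. The mast cell proteases, which fell in bulk tumors and were near 0 in sorted cells, had 2.10 for TPSB2, 1.55 for CMA1 and 1.30 for CPA3. These 3 reached 1 scaled FPKM in bulk sh NC libraries alone, and AP1M2 in sorted sh_B7-H3 (1) libraries alone, so a difference was built into the filter on low values. Genes with a negative interaction had -1.75 for LOXL2, -1.78 for FHL1, -1.79 for LOX, -1.95 for ASPN, -1.98 for POSTN, -2.02 for PALLD, -2.16 for CDH11, -2.17 for CTHRC1, -2.27 for THBS2 and -2.31 for C1QTNF3.

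The 3 sorted libraries of a second shRNA, sorted sh_B7-H3 (2), entered no comparison. Replicate 1 of that group stands apart, since its pan-leukocyte markers summed to 237 scaled FPKM against 12.1 and 12.1 in replicates 2 and 3. Mean levels above those of sorted sh NC were found there for CD74 (1495 scaled FPKM), H2-AA (321 scaled FPKM), H2-AB1 (313 scaled FPKM), H2-EB1 (127 scaled FPKM), H2-DMA (20.7 scaled FPKM), CTSS (115 scaled FPKM), H2-DMB2 (26.5 scaled FPKM), FOSB (72.8 scaled FPKM) and IGFBP3 (73.5 scaled FPKM). In replicates 2 and 3 alone, CD74 had 1253 and 1316 and CTSS 43.7 and 42.0 scaled FPKM, against 258 for CTSS in replicate 1. These differences were not tested, and the genes listed are not all of the called ones. CD300E, KHDC1B and GM3336, named after their values were seen, had means of 0.444, 0.497 and 1.12 scaled FPKM there. Their means in sorted sh_B7-H3 (1) cells were 3.29, 4.32 and 4.42. CD276 was not lower there than in sorted sh NC, with means of 24.8 and 23.8 scaled FPKM.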

How the results depend on the processing

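The interaction called 56 genes. It called 128 on FPKM as deposited, which moved the median interaction of all genes to 0.12, 13 with at least 1 scaled FPKM in every library, 25 with a pseudocount of 0.1, 36 with all 15 libraries, 2148 with array weights (estimated gene by gene) and 99 with a leukocyte covariate. Leaving out 1 library gave 12 to 72. The count was 22, 32 and 12 without bulk sh NC 1, 2 and 3, 23, 15 and 20 without sorted sh NC 1, 2 and 3, and 20, 15 and 14 without sorted sh_B7-H3 (1) 1, 2 and 3. Without the 3 libraries above 50% MIR6236, an alternative chosen after seeing the data, it was 8. The sorted effect called 1192 genes on deposited FPKM, 4476 with array weights and 718 with an absolute log2 above 1, and the bulk effect 1026, 6066 and 651. The bulk effect called 1205 without the MIR6236-rich libraries and 1060 to 3328 without 1 library. The cause was not tested. All called genes kept their sign in every log2 fit in which they were tested.

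The CD276 interaction passed with array weights (-0.69) alone. That of IFNGR1 was positive on deposited FPKM (0.15), with a range of -0.10 to 0.091 without 1 library. On the linear scale, also chosen after seeing the data, H2-EB1 (-11.8 FPKM) and CTSS (-97.4 FPKM) changed sign. For the 20 named genes, leaving out 1 library kept the call in 141 of 237 fits, and the other alternatives in 160 of 211.

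With the replicate number as a block, 24 genes passed. Same-numbered libraries correlated in their deviations from the group means between -0.48 and 0.45. Libraries with different numbers were not compared, so whether same-numbered ones share a tumor or a batch cannot be told from this. Depth in fragments is unknown, and log2 changes of genes near 0 are understated.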

Other observations

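CD276 in the sorted sh_B7-H3 (2) libraries had 23.3, 25.4 and 25.7 scaled FPKM, within the range of the sorted sh NC libraries. AP1M2, which had 9.74, 6.66 and 7.37 scaled FPKM in sorted sh_B7-H3 (1) cells, had 0.476, 0.607 and 1.09 with the second shRNA. LOX had 4.02, 8.85 and 8.17 and CDKN2B 1.94, 6.72 and 7.03 scaled FPKM with the second shRNA, against 1.54, 1.5 and 2.13 and 0.0609, 0.143 and 0.0207 in sorted sh_B7-H3 (1) cells. LOX, CDKN2B and AP1M2 were chosen after their values were seen.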
